A study of Mus musculus with 8 samples.

Results

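Potassium channel genes were examined in ribosome-bound RNA of Otp-lineage neurons of mice with a conditional knockout of Cic and of mice without it. Cic encodes the transcriptional repressor Capicua, a partner of ATXN1. The set holds 37 genes chosen by symbol, for pore-forming and auxiliary subunits of voltage-gated, inward rectifier, K2P, calcium-activated and sodium-activated channels. All 37 were found among the 24421 gene rows, and all 37 passed the filter on low counts and are among the 15438 genes tested. The 4 KO libraries came from mice with Otp-Cre, homozygous floxed Cic (Cicflox/flox) and ROSAfsTRAP, and the 4 Control libraries from mice with Otp-Cre and ROSAfsTRAP, all on the C57BL/6 strain. Both groups thus carried the Cre driver, which recombines in cells with a history of Otp expression, and the Cre-dependent allele that tags ribosomes. The Control mice carried no floxed Cic allele, so an effect of the floxed allele itself and an effect of its deletion cannot be told apart. Hypothalamus and medial amygdala were dissected together, tagged ribosomes were purified, and their RNA was amplified from 10 ng without molecular identifiers. The labels give neither age nor the number of animals behind a library, so the spread measured here may in part be technical.

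Potassium channels let potassium ions pass through the cell membrane, and so help to set the resting potential, the shape of the action potential and the rate of firing. Voltage-gated channels are built from 4 pore subunits with cytoplasmic helpers. Some inward rectifiers answer to G proteins or to the energy state of the cell, and K2P channels carry leak current. In neuroendocrine neurons of the hypothalamus such currents are known to govern bursting and peptide release.

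The 4 KO libraries held at least 33223878 gene counts each and the 4 Control libraries at least 38171319. Cic had 44.9, 34.5, 59.3 and 37.5 CPM in KO, against 103, 72.4, 101 and 101 CPM in Control, where CPM is the count relative to TMM-scaled library size (log2 fold change -1.10, edgeR adjusted p = 0.00220), so that 46.7% of the Control mean remained in KO. All 12 neuron markers had counts in every library, with a summed level in CPM between 13645 and 17709 for KO libraries and between 13372 and 15512 for Control libraries. Otp itself was low, at 4.96 ± 2.54 CPM in KO and 3.45 ± 1.14 CPM in Control (SD, n = 4 each). All 6 markers of the Otp lineage had positive fold changes, with a median of 0.47 on the log2 scale, none past the threshold. Of the 6, 2 had an unadjusted p under 0.05 (33.3%, against 10.6% of all genes tested). Their sum, 221–360 CPM in KO libraries against 213–289 CPM in Control libraries, overlapped. RNA of other cells was also present. The 14 oligodendrocyte markers summed to 1785–3271 CPM in KO libraries, against 2796–3581 CPM in Control libraries. All 14 had negative fold changes, of which 1, Cldn11, passed the test. An unadjusted edgeR p under 0.05 was found for 8 of the 14 (57.1%, against 10.6% of all genes tested). KO and Control libraries did not overlap for 4 of the 14 (28.6%, against 5.93% of all genes tested). The 7 markers listed for oligodendrocyte precursors (Pdgfra, Cspg4, Olig1, Olig2, Sox10, Gpr17 and Bcas1) summed to 112–172 CPM in KO libraries, against 175–212 CPM in Control libraries, without overlap, and all 7 had negative fold changes. Olig1 (means of 73.9 CPM in KO and 97.1 in Control) and Bcas1 (33.9 and 47.5) led that sum. Pdgfra (3.16 and 4.21) and Cspg4 (2.31 and 2.67) added little, so the sum does not single out precursors within the oligodendrocyte lineage. The 10 astrocyte markers summed to 1293–1762 CPM in KO libraries, against 1349–1761 CPM in Control libraries. Of the 12 microglia markers 11 had negative fold changes, none past the threshold, with sums of 25.3–47.1 CPM in KO libraries against 26.1–73.1 CPM in Control libraries. In each of these glial lists every marker had counts in every library. The part of these cells in the results below was not tested, and in such bulk RNA fewer cells of a type and less RNA per cell cannot be told apart.

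Fitted differences of the potassium channel genes between KO and Control were small. With the edgeR quasi-likelihood test adjusted over all genes, 0 of the 37 passed in either direction, where 0.259% of all genes tested did (0.194% higher and 0.0648% lower in KO). The DESeq2 test also called 0 of the 37, and 179 of all 15438 genes tested. The log2 fold changes, KO over Control, ran from -0.39 (Kcnj9) to 0.40 (Kcnb2), 21 positive and 16 negative, with a median of 0.02 that equals the median of 0.02 over all genes tested. At an unadjusted p of 0.05 there were 4 genes of 37 (10.8%), near the background of 10.6%. Kcnj9, Kcnip1, Kcnc2 and Kcnb2 were these 4. KO and Control libraries did not overlap for 2 of 37 genes, Kcnip1 on the higher and Kcnj9 on the lower side, against a background of 5.93% of all genes tested (3.01% higher and 2.91% lower in KO).

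The 95% intervals, each for a single gene in bulk RNA, covered only small changes for most of the genes. The 95% interval of the log2 fold change lay wholly within 1.5-fold in both directions for 28 of the 37, and within 2-fold for all 37, whereas 53.3% of all genes tested had an interval within 1.5-fold. The 9 wider ones were Kcna5, Kcnb2, Kcnc2, Kcnh5, Kcnab1, Kcnip2, Kcnj4, Kcnj6 and Kcnj9. No potassium channel gene of the 37 had a fitted change beyond 0.5 on the log2 scale, against 11.8% of all genes tested and 4.36% of the 11987 tested genes at or above the mean CPM of the lowest of the 37. The median size of the log2 fold change, sign left out, was 0.159 for the 37, 0.166 over all genes tested and 0.139 for those 11987. By that measure the 37 did not change less than genes of such levels. The genes are well covered, since the lowest count of any of them in any library was 95 (Kcnj4), and together they took 0.212% to 0.255% of gene counts in KO and 0.210% to 0.246% in Control.

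**Figure D1:**
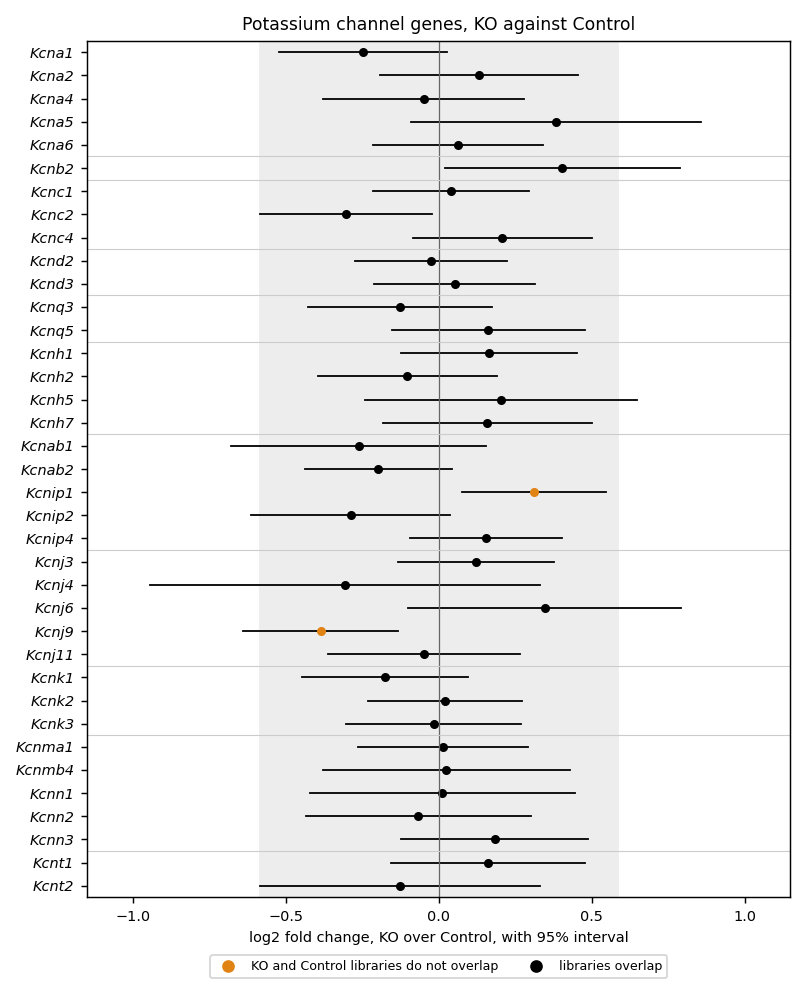
Log2 fold change of each potassium channel gene, KO over Control (x axis), with its 95% interval from the edgeR fit, grouped by family down the page. The grey band marks 1.5-fold in either direction, and the 2 orange points, Kcnip1 and Kcnj9, are the genes whose KO and Control libraries do not overlap.

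Kcnj9 encodes the G protein-gated inward rectifier subunit GIRK3, which co-assembles with other GIRK subunits and directs channels toward lysosomes. It had 65.3, 55.1, 69.5 and 52.1 CPM in KO, against 84.7, 74.8, 81.0 and 75.8 CPM in Control. Every KO library was below every Control library. The means were 60.5 ± 8.25 CPM in KO and 79.1 ± 4.62 CPM in Control (SD, n = 4 each), and the KO mean stood at 76.5% of the Control mean (fitted log2 fold change -0.39, 95% interval -0.64 to -0.13). The difference did not pass over all genes (edgeR adjusted p = 0.225, unadjusted p = 0.00474). The exact two-sided permutation p of 0.0286, the smallest that 4 against 4 allows, follows from the lack of overlap and adds nothing to it. Leaving out each library in turn kept the unadjusted p under 0.05 in 8 of 8 fits, and the adjusted p ran from 0.0879 to 0.613 over all 17 alternatives. Kcnj9 lies on chromosome 1 from 172320501 to 172329318 on the minus strand of GRCm38.

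Kcnip1 encodes KChIP1, a calcium-binding partner that brings Kv4 channels to the membrane and alters how fast they inactivate. It had 238, 227, 256 and 218 CPM in KO, against 185, 213, 187 and 173 CPM in Control. All KO libraries stood above all Control libraries, the nearest pair being KO replicate 4 and Control replicate 2. The means were 235 ± 16.4 CPM in KO and 189 ± 16.7 CPM in Control (SD, n = 4 each), a 1.24-fold ratio of means (fitted log2 fold change 0.31, 95% interval 0.07 to 0.55). The difference did not pass over all genes (edgeR adjusted p = 0.321, unadjusted p = 0.0126). Here too the exact two-sided permutation p of 0.0286 follows from the lack of overlap. Kcnip1 too kept an unadjusted p under 0.05 in 8 of 8 fits that left out 1 library, with an adjusted p of 0.180 to 0.683 over the 17 alternatives. The gene spans 364 kb of chromosome 11, from 33629339 to 33993152 on the minus strand.

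Capicua binds DNA at the octamers TGAATGAA and TGAATGGA. RefSeq promoter windows (250 bases before a start site and 50 after, GRCm38.p6) were found for 30 of the 37 genes, 46 windows in all, and were searched for both octamers on both strands. Only 1 of the 30 genes, Kcnip1, held one (3.33%), against 1.93% of all tested genes with a window. Counted by window, it was 1 of 46 (2.17%), against 1.59% of the windows of all genes tested. The 2 windows below belong to the genes whose libraries did not overlap, printed on the gene's strand, with the octamer in capitals. That of Kcnip1 (chr11:33843637-33843936, minus strand, one of its 3 windows) carries TTCATTCA, the reverse complement of TGAATGAA, at positions 252 to 259 of the window. That of Kcnj9 (chr1:172329273-172329572, minus strand) carries neither octamer. A match in letters is a description of the window and shows no binding.
Kcnip1: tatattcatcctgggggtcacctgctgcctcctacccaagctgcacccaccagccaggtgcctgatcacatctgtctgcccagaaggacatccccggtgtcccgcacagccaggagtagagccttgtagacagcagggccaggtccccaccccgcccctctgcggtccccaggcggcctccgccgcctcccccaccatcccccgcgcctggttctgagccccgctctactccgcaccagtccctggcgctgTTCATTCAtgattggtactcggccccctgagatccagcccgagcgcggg
Kcnj9: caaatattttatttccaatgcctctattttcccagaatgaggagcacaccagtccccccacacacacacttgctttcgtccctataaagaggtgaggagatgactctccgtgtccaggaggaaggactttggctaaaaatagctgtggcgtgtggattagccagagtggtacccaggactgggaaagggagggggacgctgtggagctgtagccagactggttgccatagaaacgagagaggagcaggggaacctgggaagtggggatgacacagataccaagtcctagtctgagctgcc
The 46 windows had a median G and C content of 62.2%, with 60.3% over the windows of all genes tested.

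**Figure D2:**
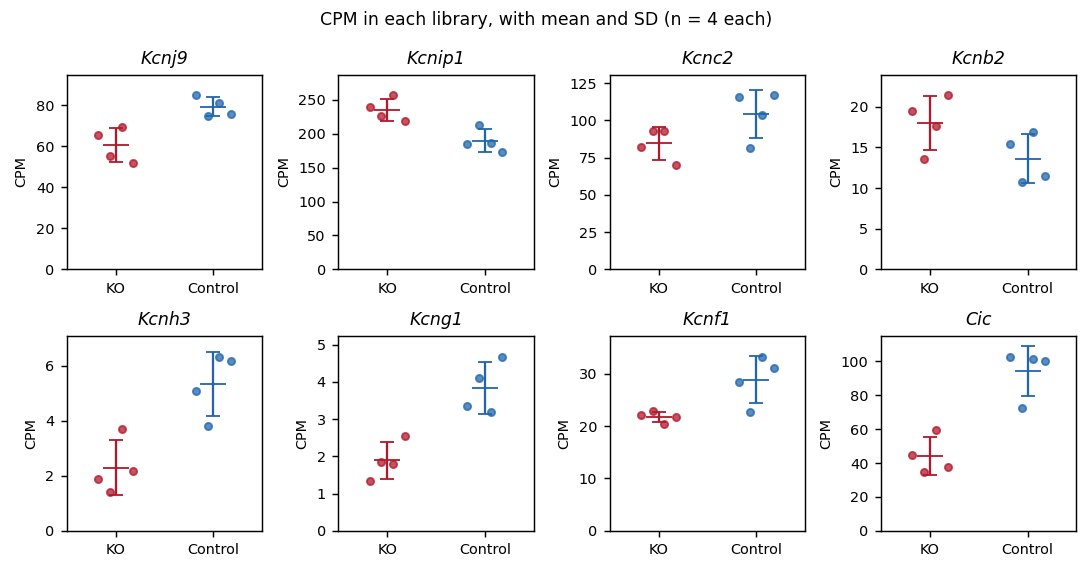
CPM in each library (y axis, starting at 0) for 4 potassium channel genes of the set, 3 related channel genes and Cic, with KO left of Control. Points are libraries, and bars give the mean and SD (n = 4 each). For Kcnj9, Kcnh3, Kcng1 and Cic all KO points lie below all Control points, and for Kcnip1 all lie above.

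Among the voltage-gated pore subunits of the Kv1 family, which set spike threshold along the axon, 0 of 5 passed. Kcna1, the low-threshold delayed rectifier subunit, had 112, 145, 132 and 102 CPM in KO, against 143, 124, 149.5 and 167 CPM in Control. The groups overlapped, with KO replicates 1 and 4 below all Control libraries (log2 fold change -0.25, 95% interval -0.52 to 0.03, edgeR adjusted p = 0.535). Its frequent partner Kcna2 averaged 249 ± 49.8 CPM in KO and 228 ± 45.1 CPM in Control (0.13, -0.19 to 0.46). Kcna5 had 8.45, 5.49, 8.44 and 9.89 CPM in KO, against 6.83, 5.97, 7.25 and 4.66 CPM in Control. KO replicate 2 was as low as the Control libraries while the other 3 were above them (0.38, -0.09 to 0.86, edgeR adjusted p = 0.593). Kcna4, an A-type subunit, and Kcna6 had log2 fold changes of -0.05 and 0.06.

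In the Kv3 family, whose fast channels allow high firing rates, the 3 genes of the set had fold changes of both signs, and 0 of 3 passed. Kcnc2 had 82.0, 93.0, 93.1 and 69.8 CPM in KO, against 115, 81.4, 104 and 117 CPM in Control. Control replicate 2 lay among the KO libraries, and the other 3 Control libraries above all of them (log2 fold change -0.30, 95% interval -0.59 to -0.02, unadjusted p = 0.0359, edgeR adjusted p = 0.432). Kcnc4 had 97.2, 92.7, 95.5 and 71.0 CPM in KO, against 76.1, 94.0, 78.0 and 60.5 CPM in Control, so that 1 library of each group broke the order (0.21, -0.08 to 0.50, edgeR adjusted p = 0.663). Kcnc1, the family member with the highest length-scaled level, had 222, 256, 272 and 203 CPM in KO, against 225, 209.5, 259 and 234 CPM in Control, with the ranges overlapping almost throughout (0.04, -0.22 to 0.29).

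Kcnb2, a subunit of the slow Kv2 delayed rectifier, had the highest fold change of the 37. It had 19.5, 13.6, 17.6 and 21.4 CPM in KO, against 15.4, 10.7, 16.9 and 11.5 CPM in Control. KO replicate 2 lay below 2 Control libraries (log2 fold change 0.40, 95% interval 0.02 to 0.79, unadjusted p = 0.0398, edgeR adjusted p = 0.438). The A-type Kv4 subunits of dendrites were level between groups. Kcnd2 had 52.8, 61.5, 51.0 and 50.7 CPM in KO, against 52.8, 49.5, 60.3 and 57.3 CPM in Control, nearly the same span in both (-0.03, -0.27 to 0.22), and Kcnd3 averaged 97.4 ± 5.30 CPM in KO and 93.9 ± 15.2 CPM in Control (0.05).

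KCNQ channels carry the M-current that neuropeptides and acetylcholine suppress. Kcnq5 had 33.7, 29.4, 40.2 and 29.6 CPM in KO, against 28.5, 25.4, 38.0 and 27.0 CPM in Control, with the third library the highest in each group (log2 fold change 0.16, 95% interval -0.15 to 0.48). Kcnq3 averaged 27.3 ± 3.76 CPM in KO and 29.8 ± 4.13 CPM in Control (-0.13). Of the EAG and ERG subunits, Kcnh1, Kcnh5 and Kcnh7 had fold changes of 0.16, 0.20 and 0.16 on the log2 scale, none past the threshold. The ERG subunit Kcnh2, the one with the highest length-scaled level, had 35.7, 39.6, 33.0 and 28.9 CPM in KO, against 39.6, 30.5, 42.8 and 34.4 CPM in Control (-0.10, -0.39 to 0.19). Its groups overlapped over most of their range.

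The other auxiliary subunits of voltage-gated channels had fold changes of both signs. Kcnip4, which lends Kv4 channels slower kinetics, had 190.3, 213, 239 and 179 CPM in KO, against 194, 186, 168 and 189 CPM in Control, with KO replicates 2 and 3 above all Control libraries (log2 fold change 0.15, 95% interval -0.09 to 0.40). Kcnip2 had 30.4, 26.5, 35.6 and 40.2 CPM in KO, against 30.0, 47.3, 42.5 and 42.3 CPM in Control, where replicate 1 lay among the KO libraries (-0.29, -0.61 to 0.04, edgeR adjusted p = 0.542). Kcnab2, the cytoplasmic beta subunit that helps place Kv1 channels on axons, had 137, 109, 123 and 123 CPM in KO, against 147, 126, 141 and 150.0 CPM in Control. KO replicate 1 alone stood above the lowest Control library (-0.20, -0.44 to 0.04, exact two-sided permutation p = 0.0571, edgeR adjusted p = 0.584). Kcnab1, which speeds inactivation of Kv1 channels, varied widely within both groups, with 22.3, 21.3, 16.6 and 31.2 CPM in KO, against 29.3, 21.2, 21.1 and 37.9 CPM in Control (-0.26, -0.68 to 0.15).

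The inward rectifiers gated by G proteins, through which inhibitory peptides and transmitters hyperpolarise neurons, differed in sign. Kcnj3 (GIRK1), which most neuronal GIRK channels contain, averaged 63.5 ± 6.66 CPM in KO and 58.3 ± 6.39 CPM in Control (log2 fold change 0.12, 95% interval -0.13 to 0.38). Kcnj6 (GIRK2) had 16.4, 23.5, 23.0 and 12.2 CPM in KO, against 11.5, 14.4, 20.8 and 12.4 CPM in Control, with KO replicates 2 and 3 above every Control library and the largest relative spread of the set in KO, at a coefficient of variation of 29.1% (0.35, -0.10 to 0.79, edgeR adjusted p = 0.616). Kcnj9 on the lower side is described above. Kcnj4, a strong inward rectifier, was the least abundant in CPM at 2.58 ± 0.490 in KO and 3.19 ± 0.825 in Control (-0.31). Kcnj11, the pore of ATP-sensitive channels, had 18.3 ± 1.76 CPM in KO and 18.9 ± 2.50 CPM in Control (-0.05).

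Length-scaled levels (CPM per kilobase of exon) gave Kcnj9 the largest mean share of the GIRK subunits in both groups. As a share of the summed length-scaled CPM of Kcnj3, Kcnj5, Kcnj6 and Kcnj9, it took 43.9% ± 2.86 in KO, from 40.4% to 47.0%, and 53.8% ± 2.24 in Control, from 51.6% to 56.5% (SD, n = 4 each). The groups did not overlap, and no other subunit did likewise among the 33 whose share within a family was computed, over 9 families. Of all genes tested, 5.93% did not overlap in CPM. Kcnj3 took 38.2% ± 5.55 in KO and 32.6% ± 3.13 in Control. These shares are given without a test, since they contain the values of Kcnj9 above. Within the Kv1 family Kcna1 took 36.1% ± 2.24 in KO and 42.5% ± 3.59 in Control, and Kcna2 29.2% ± 2.36 in KO and 26.4% ± 1.97 in Control, with overlap for both. The KChIP share of Kcnip1 was 25.4% ± 2.16 in KO and 22.1% ± 2.11 in Control, again with overlap.

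**Figure D3:**
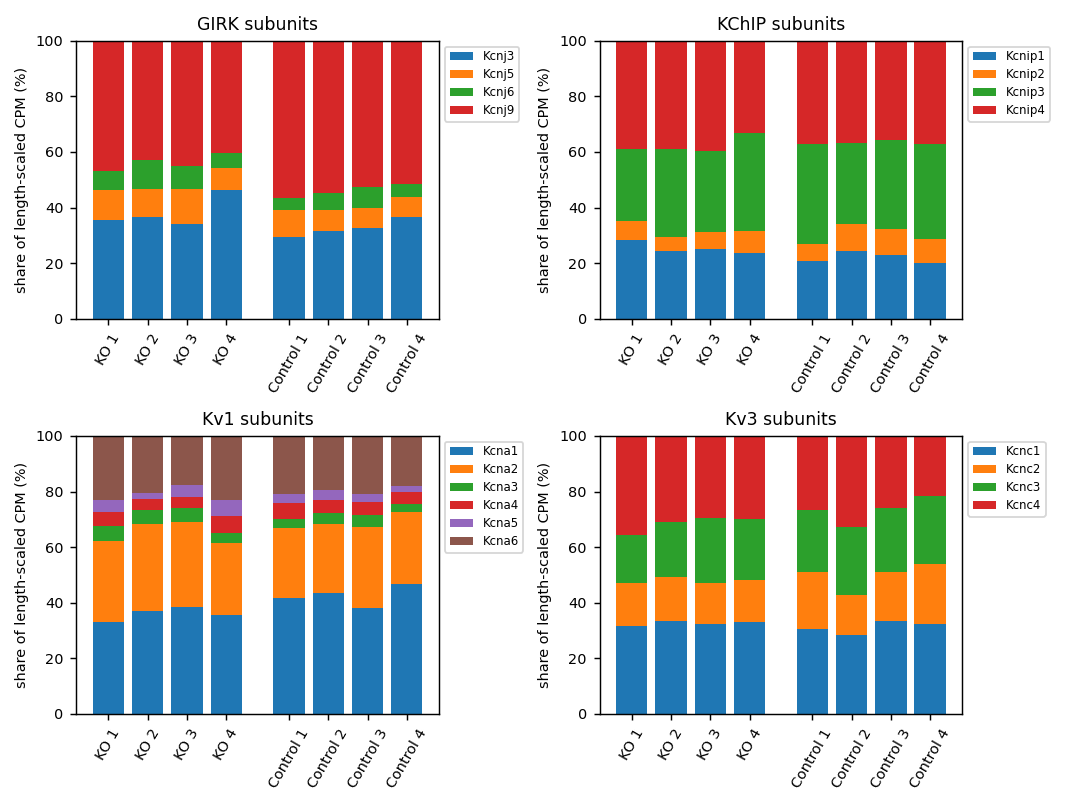
Share of each subunit in the summed length-scaled CPM of its family (y axis, percent), with 1 bar per library, KO left and Control right. In the GIRK panel the red segment, Kcnj9, takes 40.4% to 47.0% in KO and 51.6% to 56.5% in Control.

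Of the K2P genes, Kcnk1, which encodes the weakly active leak subunit TWIK-1, had 80.6, 99.3, 96.8 and 126 CPM in KO, against 116, 109, 108 and 123 CPM in Control. KO replicates 1, 2 and 3 lay below all Control libraries and replicate 4 above them (log2 fold change -0.18, 95% interval -0.45 to 0.10, edgeR adjusted p = 0.701). The mechanosensitive TREK-1 gene Kcnk2, at 52.0 ± 3.50 CPM in KO and 51.3 ± 5.62 CPM in Control, and the acid-sensitive TASK-1 gene Kcnk3, at 27.7 ± 3.32 CPM in KO and 28.0 ± 2.98 CPM in Control, were among the closest to equal (0.02 and -0.02).

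The calcium-activated channels had log2 fold changes from -0.07 to 0.18, and 0 of 5 passed. Kcnma1, the pore of the large-conductance BK channel, had 55.2, 60.1, 59.0 and 43.4 CPM in KO, against 53.8, 44.7, 61.0 and 56.0 CPM in Control. Each group had 1 low library, and the ranges were nearly the same (0.01, 95% interval -0.26 to 0.29). Kcnmb4, its neuronal beta subunit, had 8.88 ± 1.43 CPM in KO and 8.72 ± 1.16 CPM in Control (0.02). For the SK genes, whose channels take part in the hyperpolarisation after spikes, the fold changes were 0.01 for Kcnn1, -0.07 for Kcnn2 and 0.18 for Kcnn3 on the log2 scale. Kcnn3 had the highest share of the 3 SK genes per length, at 42.3% ± 6.65 in KO and 38.6% ± 5.77 in Control. The sodium-activated channel gene Kcnt1 had 32.2, 51.1, 35.0 and 44.9 CPM in KO, against 40.9, 29.9, 39.1 and 36.3 CPM in Control, with KO replicates 2 and 4 above every Control library and replicates 1 and 3 among them (0.16, -0.16 to 0.48). Kcnt2 was at -0.13.

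Between genes, levels were compared per kilobase of exon of the GENCODE M21 models, which join all transcript forms of a gene, so that genes with long rarely used exons appear lower than they are. Length-scaled means spanned 0.859 (Kcnt2) to 56.6 (Kcnip4) in KO and 0.898 (Kcnb2) to 50.9 (Kcnk1) in Control. Kcnip4 (56.6 ± 7.33 in KO and 50.8 ± 3.09 in Control) and Kcnk1 (45.1 ± 8.44 in KO and 50.9 ± 3.03 in Control) led, less than the sum of their SDs apart in both groups, followed by Kcnip1 (37.9 ± 2.64 in KO and 30.5 ± 2.70 in Control). Next came Kcna1, Kcnc1, Kcnc4, Kcnab2 and Kcna2, with means between 20.9 and 25.7 in KO and between 19.1 and 30.5 in Control, and neighbours in either order lay less than the sum of their SDs apart. Kcnip1 stood clear of Kcna1 in KO by that measure, while in Control both had a mean of 30.5. At the low end were Kcnt2, Kcnb2, Kcnh7 and Kcnj4, at means of 0.859 to 1.20 in KO and 0.898 to 1.48 in Control.

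**Figure D4:**
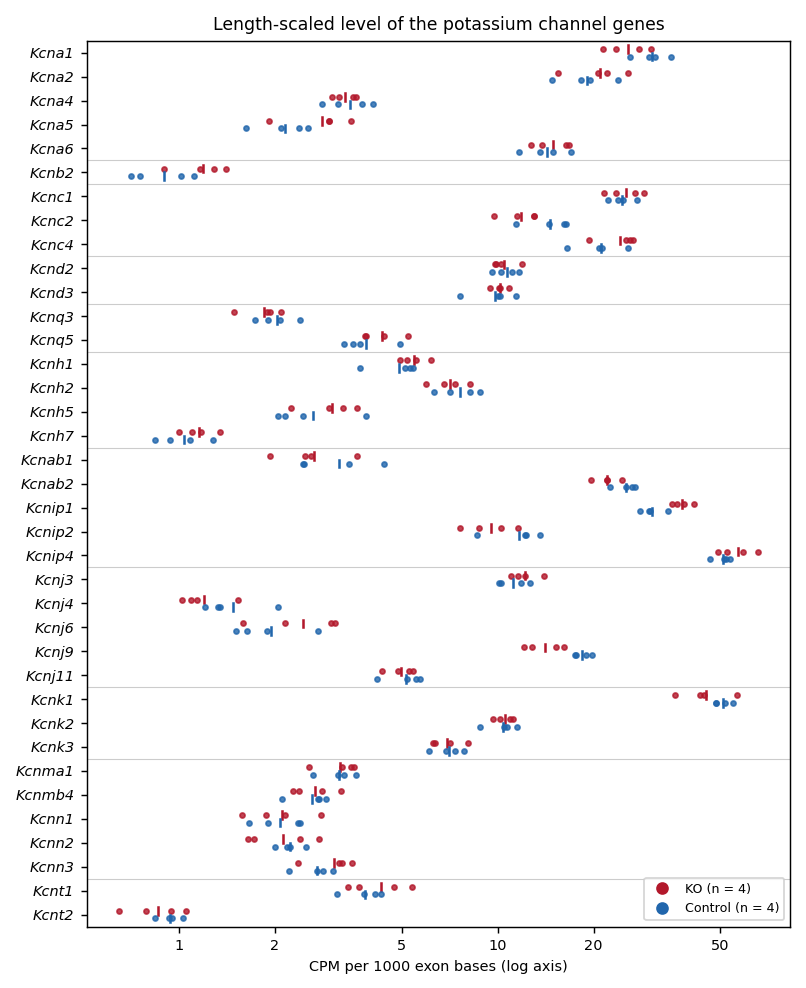
Length-scaled level (x axis, CPM per kilobase of exon, log axis) of each of the 37 genes, with KO drawn above Control in each row, 1 point per library and a tick at the mean. Kcnip4 and Kcnk1 lead and Kcnt2 and Kcnb2 are lowest, and KO and Control points lie side by side for nearly every gene.

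Variation between libraries of the same group was of similar size in both groups. The coefficient of variation of CPM had a median of 13.8% in KO (5.44% to 29.1%) and of 13.9% in Control (5.84% to 32.1%). Deviations were shared across many of the genes in Control more than in KO. KO replicate 4 was the lowest KO library for 15 of the 37 genes but the highest for 8, and KO replicate 3 was the highest for 13. KO libraries were above their group mean for 16 to 22 of the 37. Control replicate 2 was the lowest Control library for 21 of the 37 and above its group mean for 9. Control replicate 3 was the highest for 16 and above its group mean for 27. The same counts over all genes tested were not made. Control replicate 2 also had the lowest Cic level of the Control libraries, and the highest share of counts on the ribosomal RNA row (Rn45s, 11.5% of gene counts, against 5.52% to 10.1% in KO and 8.46% to 10.3% in the other Control libraries). Without Control replicate 2 the median of the 37 log2 fold changes was -0.01 and 5 of the 37 had an unadjusted p under 0.05. Over all genes tested in that fit the median was 0.02, and 1261 of 15638 had an unadjusted p under 0.05.

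**Figure D5:**
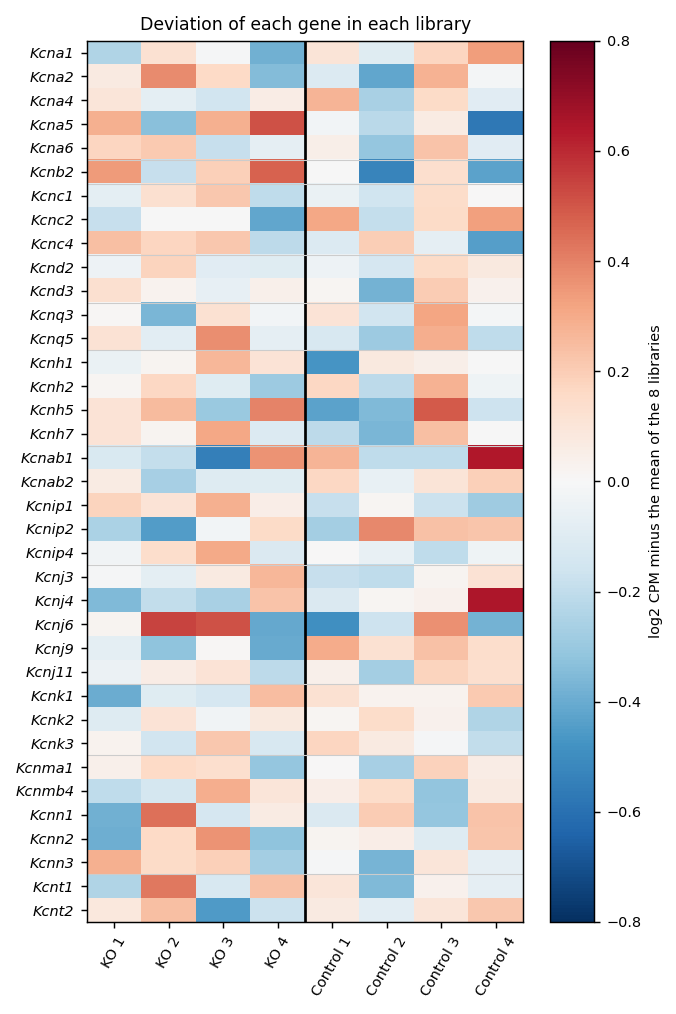
Deviation of each gene in each library, as log2 CPM minus the mean of the 8 libraries (colour), for the 37 genes by family, with KO libraries left of the line and Control libraries right. Control replicate 2 is the lowest Control library for 21 genes. KO replicate 4 is the lowest KO library for 15 and the highest for 8.

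Cic lies on chromosome 7. Kcnj11 and Kcnc1 were the only 2 of the 37 on that chromosome, 20.8 Mb and 21.1 Mb away. For 9 of the 37, exons overlap those of a gene on the opposite strand, and the libraries, made from double-stranded cDNA per the labels' protocols, keep no strand, so reads of the pair cannot be told apart where the exons overlap. The overlap was greatest for Kcnmb4, where Kcnmb4os2 covers 20.8% of the exon bases. Neither Kcnj9 nor Kcnip1 is among the 9.

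A further 63 genes of the same families, listed by symbol, gave the surroundings of the set, and 46 of them were tested. None passed over all genes with edgeR, whereas the DESeq2 test called 1, Kcnh3, and 179 of all 15438 genes tested. There were 18 positive and 28 negative fold changes, with a median of -0.05 on the log2 scale. At an unadjusted p of 0.05 there were 7 genes (15.2%, against a background of 10.6%), 6 of them lower in KO (background 4.53%) and 1 higher (background 6.06%). KO and Control did not overlap for 5 of the 46, with Kcnh3, Kcng1, Kcnab3 and Kcns2 lower in KO and Lrrc55 higher (background 2.91% lower and 3.01% higher).

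The silent voltage-gated subunits, which form no channel alone and modify Kv2 channels, had mostly negative fold changes. Of 9 tested, 8 were negative, with a median of -0.34 on the log2 scale, Kcng3 was at 0.36, and 0 passed. Over all genes tested 53.8% of fold changes were positive. The CPM of the 10 genes listed summed to 69.9, 76.8, 77.7 and 71.4 in KO, against 92.6, 84.9, 89.5 and 104 in Control, without overlap. It was the only one of 17 such family sums without overlap, near the share of 5.93% of all genes tested that had none singly. Kcng1 had 1.34, 1.86, 1.81 and 2.56 CPM in KO, against 3.35, 4.12, 3.20 and 4.68 CPM in Control, all lower (log2 fold change -1.02, 95% interval -1.68 to -0.37, unadjusted p = 0.00373, edgeR adjusted p = 0.211). Kcnf1 had 22.2, 22.8, 20.5 and 21.8 CPM in KO, against 28.4, 22.8, 33.2 and 31.0 CPM in Control, where replicate 2 lay in the KO range (-0.40, -0.70 to -0.11, unadjusted p = 0.00981, edgeR adjusted p = 0.295). Kcng4 averaged 16.4 ± 2.76 CPM in KO and 20.7 ± 3.24 CPM in Control (-0.34, edgeR adjusted p = 0.470).

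Markers of striatal and cortical neurons, which lie beside the dissected regions, had negative fold changes in 4 of 6 cases, with summed levels of 30.3–75.7 CPM in KO libraries, against 38.7–99.2 CPM in Control libraries, which overlap, and none at 0 in any library. Their part in the values of the silent subunits was not tested. Nor was that of the markers listed for oligodendrocyte precursors, whose sum did not overlap, although KO and Control overlapped for all but 1 of the 7 taken singly.

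Of the remaining genes under an unadjusted p of 0.05, Kcnh3, an ELK-type subunit of forebrain neurons, had 1.88, 1.42, 3.71 and 2.19 CPM in KO, against 5.08, 3.81, 6.33 and 6.18 CPM in Control. KO replicate 3 came close to Control replicate 2, and the groups did not overlap (log2 fold change -1.22, 95% interval -1.88 to -0.56, unadjusted p = 0.001000, edgeR adjusted p = 0.137). Over the 17 alternatives the adjusted p of Kcnh3 ran from 0.0166 to 0.389. It passed in 2 of them, the DESeq2 test and the edgeR fit without KO replicate 3 (0.0474), the KO library nearest to Control. Kcnab3, a beta subunit of Kv1 channels, had 38.2, 33.1, 34.2 and 28.9 CPM in KO, against 41.1, 41.2, 47.3 and 40.2 CPM in Control, without overlap (-0.34, edgeR adjusted p = 0.330). Lrrc55, a gamma subunit of BK channels, had 40.5, 36.6, 37.6 and 34.2 CPM in KO, against 25.7, 30.3, 33.2 and 31.8 CPM in Control, the only one of the 7 on the higher side (0.30, edgeR adjusted p = 0.401). Kcne4, an auxiliary subunit of low level, averaged 1.06 ± 0.421 CPM in KO and 2.16 ± 0.989 CPM in Control (-1.03, edgeR adjusted p = 0.432).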

How the data were processed

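RNA bound to tagged ribosomes was counted in 8 libraries, 4 KO and 4 Control. What the authors deposited are unnormalised read counts by gene symbol. The submitters' processing notes name TopHat2 2.0.9, HTSeq, DESeq2 and the mm10 build. Annotation and strand setting were not given in the sources used here. Every library's table has 24421 gene rows. Its 92 spike-in and 5 counter rows were not used for library sizes or tests. Spike-in counts were 0.0655%, 0.0569%, 0.395% and 0.0739% of gene counts in KO replicates 1 to 4, and 0.299% to 0.522% in Control libraries. The counter row for non-unique alignments held 69.2% to 81.9% of all counts in KO libraries and 63.3% to 74.1% in Control libraries. The part of these differences in the results was not tested.

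KO was tested against Control with the robust quasi-likelihood fit of edgeR 4.0.16 (R 4.3.3) on TMM-scaled counts. The filterByExpr filter, set to a minimum count of 10 and a minimum total of 15, left 15438 genes, and Benjamini-Hochberg adjustment ran over all of them with a threshold of 0.05. The fit was tested on simulated counts. The 95% intervals of log2 fold changes come from the F statistic of that fit and its degrees of freedom. Exon lengths came from GENCODE M21 (GRCm38, the build called mm10) and promoter windows from RefSeq on GRCm38.p6. DESeq2 1.42.0, other scalings, other filters, a replicate block and fits without 1 library were alternatives.

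All 37 potassium channel genes are named. Values per library are given for those whose KO and Control libraries do not overlap, the 12 of smallest p and the one of highest length-scaled level in each family. Of the other potassium channel genes, those of unadjusted p under 0.05 and at least 1 CPM are named. The genes and lists were chosen with earlier results of these data known.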

Additional observations from a re-analysis of the deposited data

Results flagged for a closer look

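Among 90 groups of 4 libraries (45 named genes in KO and in Control), 4 had a library apart from the other 3 by Dixon's test, where chance gives about 1 in 20 groups. Kcng4 stood highest in KO replicate 2 with 20.48 CPM, while the remaining KO libraries lay between 14.57 and 15.22. Kcnj4 was highest in Control replicate 4 with 4.409 CPM, while the rest of the Control libraries lay between 2.602 and 2.886. Kcnab3 was highest in Control replicate 3 with 47.31 CPM, beside 40.18 to 41.23 in the rest. Cic was lowest in Control replicate 2 with 72.35 CPM, beside 100.5 to 102.8 in the rest.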

How the results depend on the processing

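Under the 17 alternatives the number of the 37 potassium channel genes past the threshold stayed at 0. Of the 37, 2 (without Control replicate 4) to 8 (without KO replicate 4) had an unadjusted p under 0.05. The background moved the same way, with 1262 of 15604 genes tested without Control replicate 4 and 2168 of 15659 without KO replicate 4. Cic passed under every one of the 17, at -1.27 to -1.01. Over all genes tested, 40 passed, against 26 with total counts only, 179 with the DESeq2 test, 65 with the replicate block and 14 to 53 when 1 library was left out. Of the other potassium channel genes, 0 passed, against 1 (Kcnh3) with the DESeq2 test and 0 to 1 when 1 library was left out. Same-numbered libraries correlated at -0.04 to 0.09, so the replicate block rests on a shared number only. The cause of these shifts was not tested. Signs turned for 12 of the 37 genes, none past the threshold on either side. With upper-quartile scaling the log2 fold changes were -0.0089 (Kcnk2), -0.013 (Kcnma1), -0.0065 (Kcnmb4) and -0.016 (Kcnn1), and Kcnn1 was at -0.0020 both without Rn45s and with the replicate block. When 1 library was left out, the log2 fold change ran from -0.14 to 0.041 for Kcna4, -0.026 to 0.15 for Kcna6, -0.031 to 0.10 for Kcnc1, -0.10 to 0.022 for Kcnd2, -0.054 to 0.13 for Kcnd3 and -0.14 to 0.0051 for Kcnj11. It ran from -0.052 to 0.071 for Kcnk2, -0.10 to 0.040 for Kcnk3, -0.067 to 0.10 for Kcnma1, -0.078 to 0.082 for Kcnmb4, -0.17 to 0.12 for Kcnn1 and -0.21 to 0.029 for Kcnn2. With 4 libraries a group, the 95% intervals lay within 1.5-fold for 28 of the 37 genes and within 2-fold for all 37. Each interval is for a single gene in bulk RNA and sets no limit on changes within a part of the cells.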
